A study of Homo sapiens with 10 samples.

Results

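The genes described here were the protein-coding HOX genes of the HOXA, HOXB, HOXC and HOXD clusters, chosen by gene symbol alone (HOX, a cluster letter and a number). The expression table held 38 of them among 34567 genes, namely 10 HOXA, 10 HOXB, 9 HOXC and 9 HOXD genes. One further gene that the annotation names, HOXA9, was not analysed here. RNA sequencing of poly-A selected RNA was carried out in human glioma cell lines in which the homeobox gene MEOX2, a transcription factor that lies outside the HOX clusters, had been lowered or raised. SNB19 cells received scramble siRNA (SNB19 NC, 3 libraries) or MEOX2 siRNA (SNB19 siMEOX2, 3 libraries) by lipofection, a transient treatment. U87 cells received empty vector lentivirus (U87 EV, 2 libraries) or a MEOX2 lentivirus (U87 OE, 2 libraries), which by the study's methods gives stable cell lines after drug selection. The U87 groups were taken from the sample titles, in which both OE libraries carry the same second name, and the treatment field names MEOX2 for 1 U87 EV library and MEOX3, MEOX4 and MEOX5 for the other U87 libraries. The question was how lower or higher MEOX2 changes gene expression. The labels did not say which MEOX2 siRNA was used, when RNA was taken, or whether replicates were separate cultures, so the p-values measure the spread between these libraries, which may be technical. Each condition was studied in a single cell line.

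HOX genes encode homeodomain transcription factors that assign position along the head-to-tail axis of the embryo. Within a cluster the genes lie in the order in which they are used along that axis, from low-numbered anterior genes to high-numbered posterior genes, and genes with the same number in different clusters are paralogues with closely related proteins. Polycomb proteins keep the clusters silent, Trithorax proteins keep active genes on, retinoic acid and CDX factors act upstream, and PBX and MEIS proteins bind DNA together with HOX proteins. In the adult forebrain HOX genes are largely silent, whereas glioma cells often express several. In the GRCh38 annotation the HOXA cluster lies on chromosome 7, HOXB on chromosome 17 from 48528526 to 48729178, HOXC on chromosome 12 from 53938765 to 54056030 and HOXD on chromosome 2 from 176092891 to 176190907. Paralogue numbers 1 to 3 are called anterior here, 4 to 8 central and 9 to 13 posterior.

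Promoter sequence was at hand for 19 of the 38 members, as 25 distinct RefSeq windows of 300 bases on GRCh38.p14, reaching from 250 bases before to 50 bases after a transcription start. HOXA3 has several of these windows, and HOXC4 and HOXC5 share 1 window, which is counted once. The following 3 windows are shown because the results turn on these genes, HOXD8 being the member called lower in both perturbations, and HOXD13 and HOXA13 being paralogues of which HOXD13 was counted mainly in U87 and HOXA13 mainly in SNB19. Capitals mark the CCAAT box (CCAAT or ATTGG, that is, either strand) and the homeodomain core (TAAT or ATTA, either strand). Each sequence is written 5′ to 3′ on the gene's own strand.
HOXD8, chr2:176129455-176129754, plus strand: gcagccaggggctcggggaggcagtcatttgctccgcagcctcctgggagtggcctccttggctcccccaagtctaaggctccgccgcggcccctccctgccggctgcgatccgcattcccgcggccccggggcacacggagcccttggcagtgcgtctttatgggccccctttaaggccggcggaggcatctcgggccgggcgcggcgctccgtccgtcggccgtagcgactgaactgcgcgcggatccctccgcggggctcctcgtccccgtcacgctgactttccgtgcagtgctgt
HOXD13, chr2:176092471-176092770, plus strand: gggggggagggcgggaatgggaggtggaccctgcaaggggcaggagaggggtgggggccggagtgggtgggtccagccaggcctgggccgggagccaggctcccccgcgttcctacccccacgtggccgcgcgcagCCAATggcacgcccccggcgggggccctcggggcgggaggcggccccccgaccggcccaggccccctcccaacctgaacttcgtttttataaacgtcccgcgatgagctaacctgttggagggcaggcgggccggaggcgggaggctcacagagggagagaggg
HOXA13, chr7:27200042-27200341, minus strand: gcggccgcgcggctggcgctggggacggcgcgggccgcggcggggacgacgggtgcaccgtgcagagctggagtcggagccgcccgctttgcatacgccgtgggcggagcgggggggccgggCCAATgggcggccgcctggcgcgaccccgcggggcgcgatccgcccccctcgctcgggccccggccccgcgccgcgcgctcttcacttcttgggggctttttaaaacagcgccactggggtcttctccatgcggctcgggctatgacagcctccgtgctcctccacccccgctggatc
HOXD13 and HOXA13 each held 1 CCAAT box and HOXD8 held none. At least 1 CCAAT box was in 16 of the 25 HOX windows and in 34.6% of all 34943 distinct windows. The TAAT core was in none of these 3 windows, was in 19 of the 25 HOX windows and was in 50.3% of all windows. The longer homeodomain site TAATTA, which contains the core on both strands, was in 2 of the 25 HOX windows and in 4.85% of all windows. The 3 windows were rich in G and C, at 71.7% for HOXD8, 74.0% for HOXD13 and 76.3% for HOXA13, where the median window of the table was at 58.7%. These letters describe the windows and do not show binding.

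The libraries held 12533775 to 16560324 counts assigned to genes. MEOX2 itself followed the groups given by the titles, with 249, 224 and 275 counts in the SNB19 NC libraries, 54, 40 and 49 in SNB19 siMEOX2 (log2 fold change -2.42, SE 0.14, adjusted p = 9.10e-05 by the edgeR test described below), 0 and 0 in U87 EV, and 4999 and 5308 in U87 OE. U87 EV replicate 1 stood apart from the other libraries. Ribosomal protein genes took 14.8% of its counts against 4.61% to 7.49% elsewhere, and its scaling factor from the trimmed mean of M values (TMM, which sets libraries to a common level over most genes) was 0.695 against 0.950 to 1.13. The deposited FPKM values (fragments per kilobase of exon, scaled to library size) carry no such correction, whereas the tests and the CPM values below (counts per gene scaled to library size, not to length) do. Of the glial markers, VIM (161 FPKM in SNB19 NC and 464 in U87 EV) and CD44 were high, while GFAP (0.363 and 0.196 FPKM) and S100B were at or near 0. In the same order, SOX2 was at 13.2 and 0.0142 FPKM, NES at 9.75 and 2.77, OLIG2 at 1.15 and 1.50 and FABP7 at 0.0926 and 0.294. SNB19 also carried the epithelial keratins KRT8 (43.6 FPKM) and KRT18, and the leukocyte marker PTPRC was at or near 0 in every group.

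In SNB19 NC cells HOX expression was broad. A mean of at least 1 FPKM was reached by 19 of the 38 members, 5 in HOXA, 6 in HOXB, 5 in HOXC and 3 in HOXD. In U87 EV cells 9 members reached that level, none in HOXA, 3 in HOXB, 1 in HOXC and 5 in HOXD, and 10 members had no count in either library. The summed FPKM of all members was 77.5 ± 0.397 (SD, n = 3) in SNB19 NC and 41.5 ± 0.840 (SD, n = 2) in U87 EV. FPKM leaves out the TMM factors of the U87 EV libraries (0.695 and 0.952). The U87 EV mean and SD therefore do not take account of how these libraries differ in make-up, and the sums were not tested. These levels are per length, so that genes can be set side by side.

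The clusters contributed differently in the control cells of each line. In SNB19 NC, HOXB made up 39.4% of the summed HOX FPKM, HOXC 24.7%, HOXD 20.2% and HOXA 15.6%. In U87 EV, HOXD made up 46.2% and HOXB 42.7%, leaving 5.90% for HOXA and 5.17% for HOXC. By paralogue number, posterior genes made up 49.3% in SNB19 NC and 25.03% in U87 EV, and anterior genes 11.5% and 40.02%. These shares describe the group means and were not tested. A few members carried them, since HOXB2 alone was 31.9% of the U87 EV sum and HOXB7 alone was 15.1% of the SNB19 NC sum.

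**Figure D1:**
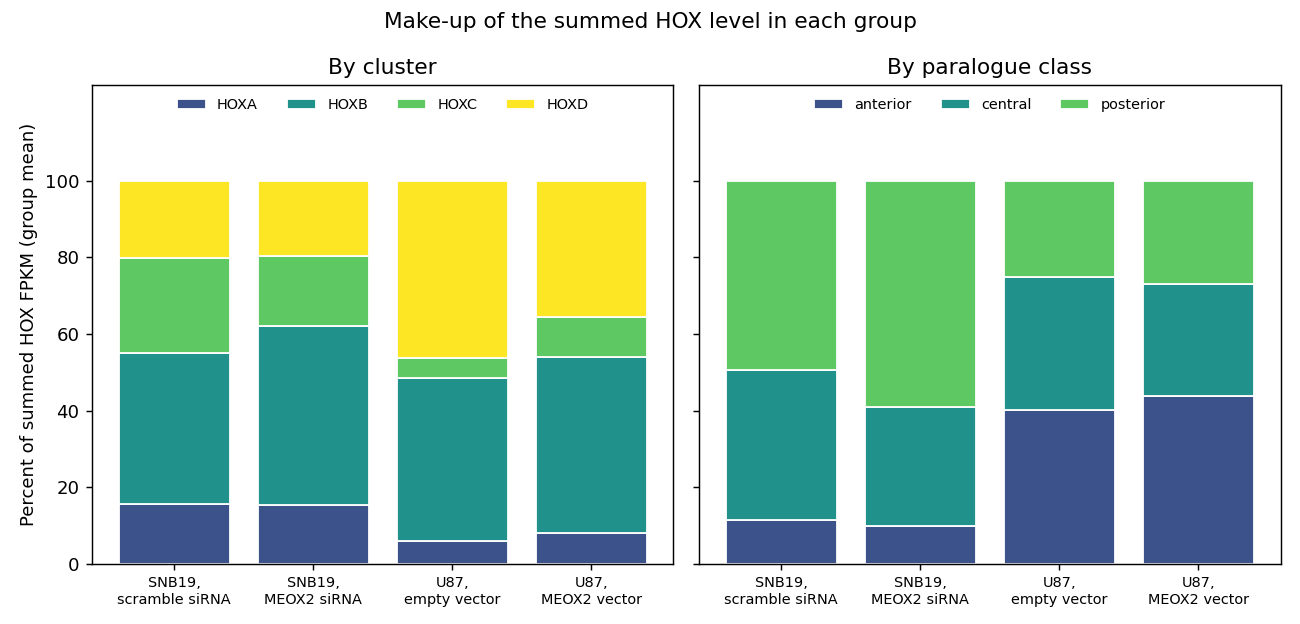
Share of the summed HOX FPKM (percent, group mean) by cluster (left) and by paralogue class (right) in the 4 groups. HOXD takes 46.2% in U87 with empty vector and 20.2% in SNB19 with scramble siRNA, and the posterior share in SNB19 is 49.3% with scramble siRNA and 59.0% with MEOX2 siRNA. The posterior member HOXB9 alone, not drawn apart here, goes from 6.95% to 21.4%, more than the posterior share gains.

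In the HOXB cluster, HOXB7, a central member, stood first of all members in SNB19 NC, with 11.3, 12.4 and 11.3 FPKM in its 3 libraries, and had 0.365 and 0.233 FPKM in U87 EV. HOXB9, a posterior member, had 5.22, 5.31 and 5.64 FPKM in SNB19 NC and 0.144 and 0.0551 in U87 EV. Both genes were thus lower in U87 EV than in SNB19 NC. HOXB2, an anterior gene used in the embryonic hindbrain, went the other way, with 0.155, 0.125 and 0.0827 FPKM in SNB19 NC and 16.0 and 10.5 in U87 EV. Its neighbour HOXB3 was present in both, with 34.8, 34.5 and 39.5 CPM in SNB19 NC and 13.5 and 16.7 CPM in U87 EV. The most 3′ gene, HOXB1, had no count in either control group.

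In the HOXC cluster, the posterior genes HOXC10 (6.71, 6.13 and 7.32 FPKM) and HOXC13 (4.71, 4.39 and 4.97 FPKM) led in SNB19 NC, and both were at 0 in both U87 EV libraries. HOXC11 and HOXC12, which lie between them, had 3 counts and 1 count in the 3 SNB19 NC libraries together. The high levels at numbers 9, 10 and 13 were thus interrupted by a pair of genes at or near 0. In U87 EV the leading HOXC genes were the central HOXC6 (1.07 and 1.35 FPKM, against 1.36, 1.52 and 1.51 in SNB19 NC) and HOXC4 (0.977 and 0.574 FPKM, against 1.57, 2.01 and 1.82). HOXC4, HOXC5 and HOXC6 share annotated exons, with 15.7% of the exonic bases of HOXC6 lying in exons of other genes, so their reads may be divided between them in a way the counts do not show.

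In the HOXD cluster HOXD8, HOXD9 and HOXD10 reached 1 FPKM in both lines, and HOXD11 was at 0.969 FPKM in SNB19 NC and 1.15 in U87 EV. HOXD9 had 7.52, 7.45 and 6.75 FPKM in SNB19 NC and 4.57 and 4.45 in U87 EV. HOXD8, a central gene, had 4.13, 4.55 and 3.70 FPKM in SNB19 NC and 8.17 and 9.50 in U87 EV, and was the second highest member in U87 EV after HOXB2. HOXD13, the gene at the 5′ end and known for its part in digit formation, had 0.108, 0.0976 and 0 FPKM in SNB19 NC but 2.02 and 3.46 in U87 EV. HOXD1, HOXD3, HOXD4 and HOXD12 stayed below 0.2 FPKM on average in both control groups.

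The HOXA cluster had the lowest summed level of the 4 clusters in SNB19 NC. HOXA5, a central gene with a part in lung development, had 3.29, 3.63 and 3.36 FPKM in SNB19 NC and 0.580 and 0.542 in U87 EV. HOXA10 had 1 count in the 3 SNB19 NC libraries together and 2 in the U87 EV libraries together. HOXA10, HOXC11 and HOXC12 are named after their values were seen.

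The control cells of the lines were then compared across all genes by edgeR's quasi-likelihood test, with all 10 libraries in 1 fit and p-values adjusted by Benjamini-Hochberg over 17312 genes. A gene was called at an adjusted p under 0.05. Line and vehicle differ together here (SNB19 with siRNA lipofection, U87 with lentivirus), so they cannot be told apart. A low-count filter kept 30 of the 38 members, and the 8 others (HOXA4, HOXA10, HOXB1, HOXC5, HOXC11, HOXC12, HOXD4 and HOXD12) had 1 to 42 counts over the 10 libraries. Of the 30, 21 were called (70.0%), against 56.9% of all genes. Higher in SNB19 NC were 16 members, where 28.1% of all genes were higher, and lower were 5 members, where 28.8% of all genes were lower. The median log2 fold change of the 30 members (SNB19 NC over U87 EV) was 1.76, against 0.03 for all genes tested. Members that passed the filter through SNB19 alone add by construction to this median, to the share called and to the counts of higher members here and below.

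By cluster, 6 HOXA members were higher and 1 lower of 8 tested, 6 HOXB members higher and 2 lower of 9, 4 HOXC members higher and none lower of 6, and no HOXD member higher and 2 lower of 7. By position, 2 of 7 anterior members were higher and 2 lower, 7 of 12 central members higher and 2 lower, and 7 of 11 posterior members higher and 1 lower. The 5 members lower in SNB19 NC were HOXA3, HOXB2, HOXB4, HOXD8 and HOXD13. HOXA7 shares 62.5% of its exonic bases with HOXA-AS3 on the opposite strand, and the sources do not say that strand was kept, so its counts cannot be assigned to HOXA7 alone.

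The differences with the largest fitted size concerned 7 tested members that had no count in either U87 EV library, for which only a lower bound can be given. It was set from 3 counts over the group, or 0.122 CPM. HOXC10 had 259, 196 and 265 counts in SNB19 NC and was at least 122-fold higher there. HOXB13, a posterior gene that marks prostate and hindgut, had 250, 191 and 212 counts and was at least 111-fold higher. HOXC13, a gene of hair and nail, had 189, 146 and 187 counts and was at least 88.7-fold higher. All 3 are posterior genes, 2 of them in the HOXC cluster.

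HOXC9 had 114, 72 and 94 counts (at least 47.6-fold), HOXA13 had 67, 53 and 72 (at least 32.6-fold), HOXA7 had 56, 34 and 47 (at least 23.3-fold) and HOXB8 had 40, 31 and 32 (at least 17.5-fold). Of these 7 members 5 are posterior and 2 central. The edgeR quasi-likelihood test gave each of them an adjusted p between 2.62e-06 (HOXC10) and 1.82e-04 (HOXC9). As these 7 members passed the filter through SNB19 alone, higher in SNB19 NC was the only direction open to them. HOXA6, named after its values were seen, with 73 counts in SNB19 NC and 3 in U87 EV, differed by a ratio of 12.4 (95% counting interval 4.08 to 61.6). It shares 40.1% of its exonic bases with other annotated genes, HOXA-AS3 among them, so this ratio cannot be assigned to HOXA6 alone.

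The other members among the 10 with the largest differences had counts in both lines. HOXB2 had 6, 4 and 3 counts in SNB19 NC and 604 and 344 in U87 EV, a log2 fold change of -7.16 (SE 0.43, adjusted p = 1.68e-06 by edgeR). Without U87 EV replicate 1 this was -6.54. HOXD13 had 4, 3 and 0 counts against 73 and 109, a log2 fold change of -5.58 (SE 0.60, adjusted p = 5.46e-05 by edgeR). HOXB9 had 223, 188 and 226 counts against 6 and 2, a log2 fold change of 5.30 (SE 0.33, adjusted p = 1.85e-06 by edgeR), which became 6.38 without U87 EV replicate 1 and 4.58 without replicate 2. Adjacent HOX genes could therefore stand on opposite sides, as HOXB2 (lower in SNB19 NC) and HOXB3 (higher by a fold of 2.40, adjusted p = 9.27e-05 by edgeR) did.

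Silencing of MEOX2 in SNB19 cells left most HOX members without a call. HOXB9 rose about 3-fold in all 3 siMEOX2 libraries, and HOXB3, HOXC6 and HOXD8 fell by smaller amounts. Of the 30 members tested 4 were called (13.3%), against 15.7% of all genes, so the share of called members was near that of all genes. The 1 member that was higher compares with 6.99% of all genes and the 3 that were lower with 8.75%. The median log2 fold change of the members was -0.25 and that of all genes was -0.0013. With upper quartile scaling, added after seeing the data, 55.2% of the called genes were higher, where TMM gave 44.4%, and the called members became 1 higher and none lower.

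HOXB9 had 223, 188 and 226 counts in SNB19 NC (12.9 to 13.7 CPM) and 614, 691 and 659 in SNB19 siMEOX2 (35.5 to 42.6 CPM). Every siMEOX2 library was above every control library. The log2 fold change was 1.59 (SE 0.18, adjusted p = 8.25e-04 by edgeR's quasi-likelihood test), a fold of 3.01, and the call was kept under every alternative tried, with log2 fold changes from 1.54 to 1.67. In FPKM, HOXB9 went from the fourth highest HOX member in SNB19 NC (5.39 ± 0.223, SD, n = 3) to the highest in SNB19 siMEOX2 (17.3 ± 1.88, SD, n = 3), ahead of HOXB7 (9.35 ± 1.19, SD, n = 3). The share of posterior genes in the summed HOX FPKM was 49.3% in SNB19 NC and 59.0% in siMEOX2. HOXB9 alone went from 6.95% to 21.4% of that sum, more than the posterior share gained, so the other posterior genes did not add to the gain. No exonic base of HOXB9 is shared with another annotated gene.

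The neighbours of HOXB9 did not follow it past the threshold. HOXB8, on its anterior side, had 2.31, 2.15 and 1.94 CPM in SNB19 NC and 2.84, 2.40 and 2.63 CPM in siMEOX2 (log2 fold change 0.30, SE 0.24, adjusted p = 0.470 by edgeR). HOXB7 had 16.6, 18.0 and 16.3 CPM, then 14.1, 10.8 and 13.4 (log2 fold change -0.41, SE 0.18, adjusted p = 0.161 by edgeR). HOXB13, on the posterior side, had 14.4, 13.2 and 12.9 CPM, then 11.5, 9.85 and 7.70 (log2 fold change -0.48, SE 0.23, adjusted p = 0.213 by edgeR). HOXB8 lay higher and HOXB7 and HOXB13 lower in siMEOX2, but the differences did not pass the threshold. The neighbours were named after their values were seen.

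The 3 members that fell are genes of anterior or central number. HOXB3 had 34.8, 34.5 and 39.5 CPM in SNB19 NC and 26.0, 28.1 and 25.8 in siMEOX2 (log2 fold change -0.44, SE 0.12, adjusted p = 0.0413 by edgeR). HOXC6 had 4.62, 5.12 and 5.03 CPM, then 3.07, 3.57 and 2.57 (log2 fold change -0.68, SE 0.20, adjusted p = 0.0476 by edgeR). HOXD8 had 10.4, 11.4 and 9.16 CPM, then 7.87, 5.97 and 6.63 (log2 fold change -0.59, SE 0.16, adjusted p = 0.0353 by edgeR). All siMEOX2 libraries lay below all control libraries for each of the 3 genes. The share of all genes that separate in this way was not computed.

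The size of these 3 differences changed little when 1 library was left out, with log2 fold changes from -0.48 to -0.38 for HOXB3, from -0.80 to -0.57 for HOXC6 and from -0.70 to -0.50 for HOXD8, but most of the calls were lost, as the number of genes called fell from 2725 to between 1148 and 1507. HOXB3 and HOXC6 were not called when any 1 of the 6 SNB19 libraries was left out (adjusted p from 0.0983 to 0.160 for HOXB3 and from 0.0807 to 0.176 for HOXC6), nor was HOXD8 when any but siMEOX2 replicate 1 was left out (adjusted p up to 0.144), so that 1 to 3 members were called. Without siMEOX2 replicate 1 the called members were HOXB9, HOXD8 and HOXB5. In a fit of the 6 SNB19 libraries alone 9 members were called, HOXB9 higher and HOXA7, HOXB3, HOXB7, HOXB13, HOXC6, HOXC9, HOXC13 and HOXD8 lower, in a fit that called 8683 genes in all. HOXB3 shares 13.2% of its exonic bases with other genes, HOXC6 15.7% and HOXD8 none.

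By cluster, no HOXA member was called in SNB19 siMEOX2, and the median log2 fold change was -0.05 in HOXA, -0.41 in HOXB, -0.59 in HOXC and -0.04 in HOXD. In HOXC all 6 tested members had values below 0, from -0.24 for HOXC10 to -0.78 for HOXC8, of which HOXC6 alone was called. Markers of other states moved in the same libraries, in which 6.99% of all genes were called higher and 8.75% lower. Of the 7 glial markers tested 4 were lower in siMEOX2 (GFAP, NES, SOX2 and CD44) and none higher, and the summed level of the 8 listed was 1150 to 1160 CPM in SNB19 NC and 539 to 572 CPM in siMEOX2. Of the 4 endothelial markers 2 were lower (PECAM1 and CDH5), with sums of 39.7 to 43.5 and 9.85 to 11.5 CPM, and of the 5 epithelial markers 1 was higher and 2 lower, with sums of 358 to 389 and 222 to 262 CPM. No marker of these 3 lists was at 0 in either group. Of the 4 neuron markers 1 was higher (SYP) and 1 lower (RBFOX3). The leukocyte markers summed to 1.15 to 1.94 CPM in SNB19 NC and 0.369 to 0.753 in siMEOX2, with CD68 at 0 in the latter. CD14, the only leukocyte marker tested, was lower in siMEOX2 (log2 fold change -1.67, SE 0.40, adjusted p = 0.0234 by edgeR). Their part in the HOX values was not tested. In RNA from whole cultures, fewer expressing cells and less RNA per cell cannot be told apart.

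**Figure D2:**
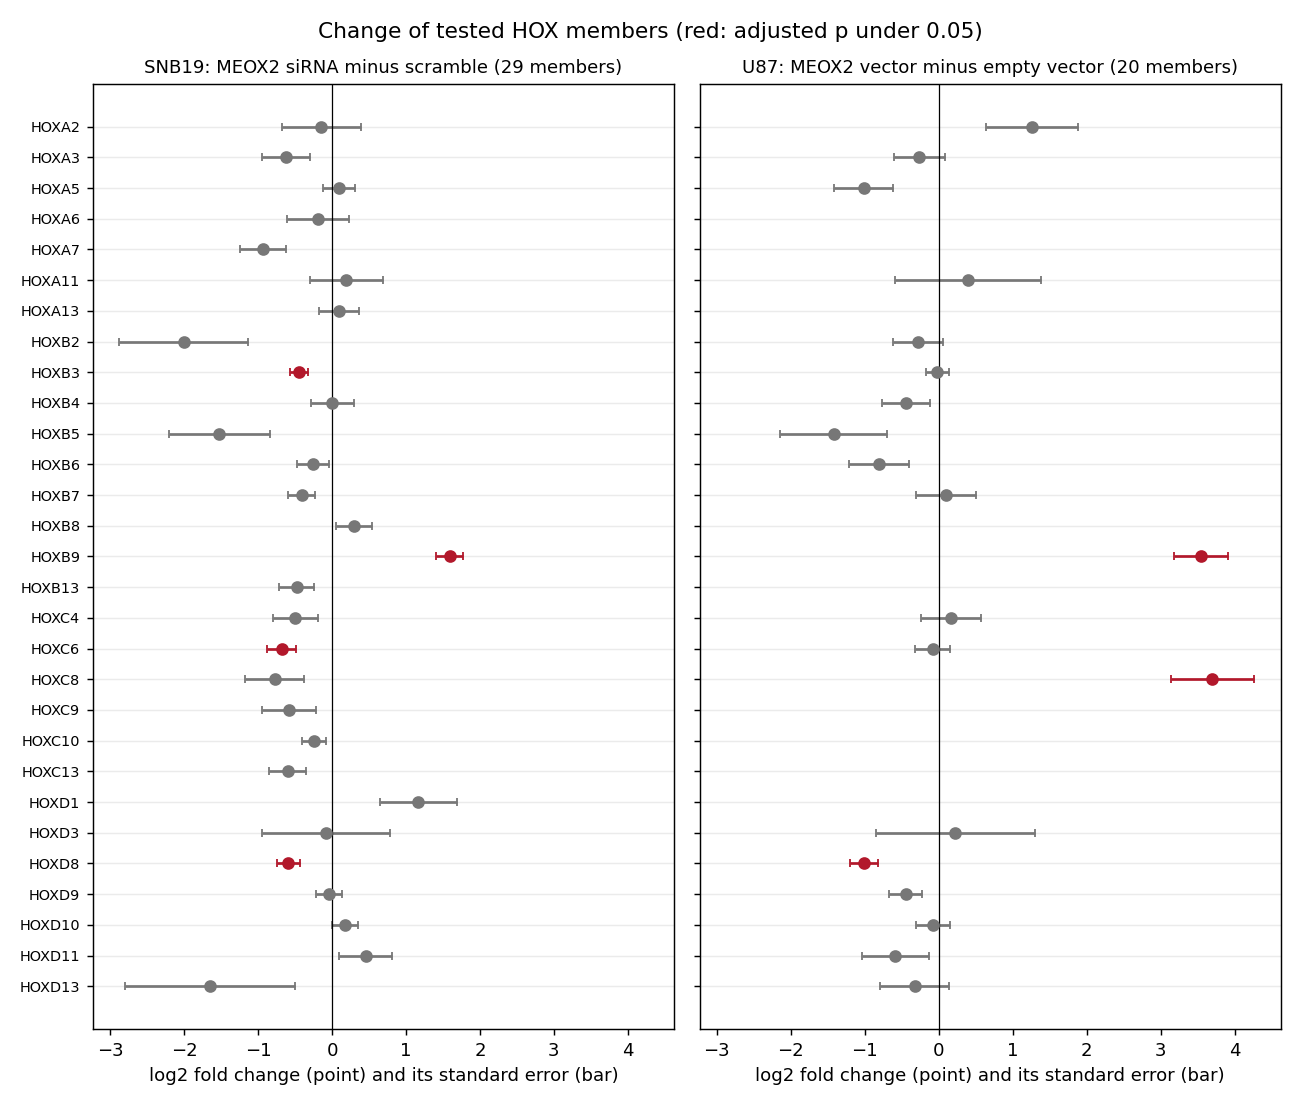
Log2 fold change (point) and its standard error (bar) of tested HOX members for MEOX2 siRNA over scramble siRNA in SNB19 (left, 29 members) and for MEOX2 vector over empty vector in U87 (right, 20 members, leaving out those without a count in one of the U87 groups), in red where the adjusted p was under 0.05. HOXB9 lies to the right of 0 in both panels, at 1.59 and 3.55, and HOXD8 to the left, at -0.59 and -1.01.

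With MEOX2 raised in U87 cells, few HOX members were called. HOXB9 and HOXC8, both near 0 in the empty vector cells, rose to levels above 1 FPKM, and HOXD8, the second highest member of these cells, fell by 1.01 on the log2 scale. Of the 30 members tested 3 were called (10.0%), against 26.2% of all genes. The 2 that were higher compare with 11.3% of all genes and the 1 that was lower with 14.9%. The median log2 fold change was -0.01 over the members and -0.02 over all genes. HOXA7 and HOXC10 had no count in any of the 4 U87 libraries, so for these genes the test could show nothing. Other members that passed the filter through SNB19 alone had few counts in U87, and all such members lower the share called by construction. With the 4 U87 libraries alone the filter kept 19 members.

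HOXB9 had 6 and 2 counts in U87 EV (0.534 and 0.149 CPM) and 46 and 56 in U87 OE (3.81 and 4.03 CPM). The log2 fold change was 3.55 (SE 0.36, adjusted p = 2.79e-04 by edgeR), a fold of 11.7, and the value rested on the few counts of the empty vector libraries, being 4.68 without U87 EV replicate 1 and 2.89 without replicate 2. HOXC8, a central gene active in the embryonic trunk, had 2 and 4 counts in U87 EV (0.178 and 0.299 CPM) and 35 and 50 in U87 OE (2.90 and 3.60 CPM). Its log2 fold change was 3.70 (SE 0.56, adjusted p = 2.09e-03 by edgeR), a fold of 12.99. Both U87 OE libraries were above both U87 EV libraries for each gene, a separation whose share over all genes was not computed. Even after the rise, HOXB9 in U87 OE (1.45 ± 0.0426 FPKM, SD, n = 2) was below its level in SNB19 NC (5.39 ± 0.223, SD, n = 3), whereas HOXC8 (1.64 ± 0.233 FPKM) was above its own (0.684 ± 0.260), a set of levels given side by side without a test.

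HOXD8 had 347 and 351 counts in U87 EV (30.9 and 26.2 CPM) and 164 and 206 in U87 OE (13.6 and 14.8 CPM). Both U87 OE libraries lay below both U87 EV libraries. The log2 fold change was -1.01 (SE 0.19, adjusted p = 5.58e-03 by edgeR), a fold of 0.498. Without U87 OE replicate 1 the call was lost (-0.94, adjusted p = 0.0572). HOXB9, HOXC8 and HOXD8 share no exonic base with another annotated gene.

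**Figure D3:**
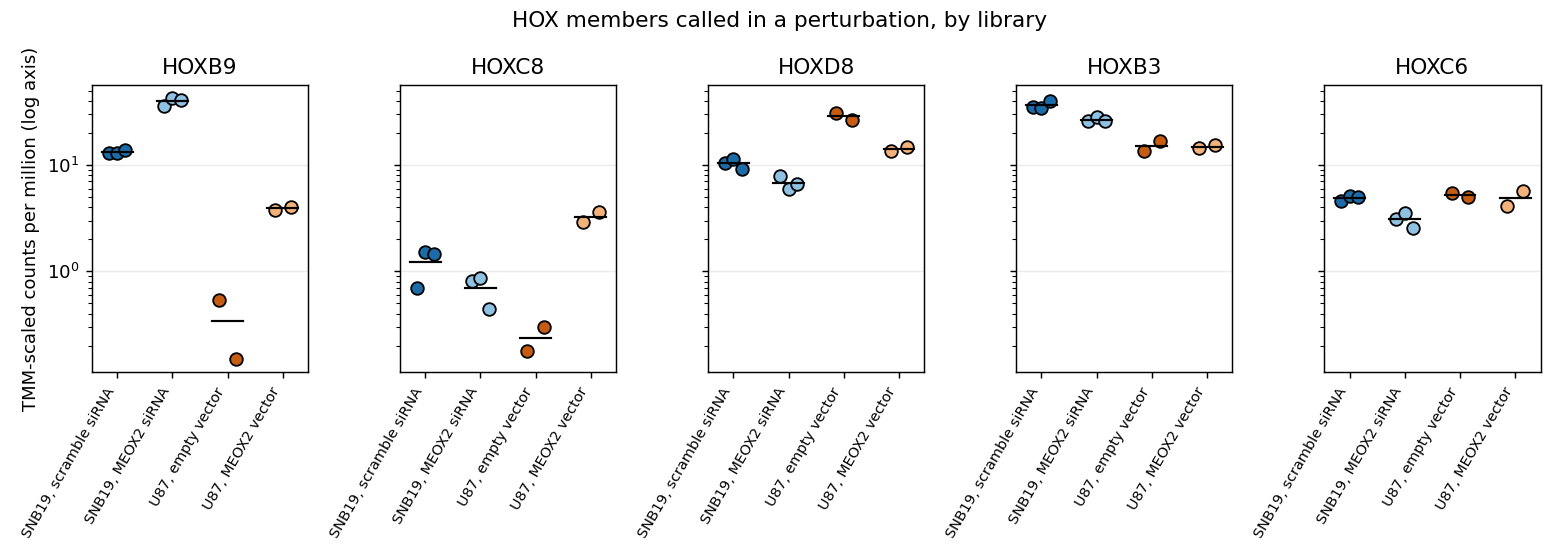
TMM-scaled CPM (log axis) of the 5 HOX members called in a perturbation, with a point for each library and a line at the group mean. HOXB9 sits at 12.9 to 13.7 CPM in SNB19 NC and 35.5 to 42.6 in siMEOX2, and at 0.149 to 0.534 in U87 EV and 3.81 to 4.03 in U87 OE.

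The count of calls in U87 differed between fits, and the cause was not tested. With the 4 U87 libraries alone, edgeR called none of 14180 genes, HOX members included (2643 genes and 3 members had an unadjusted p under 0.05), while DESeq2 over all 10 libraries called the same 3 members as the fit of all libraries in edgeR. The log2 fold changes in the fit of the U87 libraries alone were 3.51 for HOXB9 (adjusted p = 0.162), 3.68 for HOXC8 (adjusted p = 0.143) and -1.02 for HOXD8 (adjusted p = 0.204), within 0.05 of those over all libraries. Without U87 EV replicate 1, the library that stood apart, the log2 fold changes were 4.68 for HOXB9, 3.46 for HOXC8 and -0.84 for HOXD8. Without U87 EV replicate 2 they were 2.89, 4.16 and -1.09. In these last fits the lone empty vector library is assumed to vary like the other groups. Of the markers, 2 of 7 glial markers were lower in U87 OE (VIM and NES) and 1 higher (OLIG2), with sums of 2110 to 5970 CPM in U87 EV and 1360 to 1370 in U87 OE and S100B at 0 in both. Of the 4 endothelial markers 2 were lower (PECAM1 and VWF), with sums of at most 13.4 CPM in U87 EV and 9.20 to 10.1 CPM in U87 OE, and of the 5 epithelial markers 2 were lower (EPCAM and KRT19), with sums of 2.76 to 7.40 and 2.90 to 3.45 CPM and CDH1 at 0 in U87 EV. No neuron or leukocyte marker was called. Among all genes 11.3% were called higher in U87 OE and 14.9% lower. The part of these markers in the HOX values was not tested.

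The perturbations had no library in common and opposed MEOX2 in direction, so their members' values can be set side by side. HOXB9 was higher with less MEOX2 in SNB19 (1.59) and with more MEOX2 in U87 (3.55), and HOXD8 was lower in both (-0.59 and -1.01). HOXC8 had a log2 fold change of -0.78 in SNB19 (SE 0.40, adjusted p = 0.228 by edgeR), with 0.692, 1.52 and 1.46 CPM in SNB19 NC and 0.810, 0.862 and 0.438 in siMEOX2, which overlap. HOXB3 and HOXC6, called in SNB19, were at -0.02 (SE 0.16) and -0.08 (SE 0.24) in U87 OE. Line and direction of the perturbation differ together, so the difference between the perturbations was not tested.

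Noncoding RNAs of the clusters, several of them antisense to HOX genes, were compared in the same fit. Of 16 listed 11 were tested, and 7 were higher and 2 lower in SNB19 NC. HOTTIP, HOXC-AS1, HOXC-AS2 and HOXC13-AS had no count in either U87 EV library and passed the filter through SNB19 alone. Higher in SNB19 NC was therefore the only direction open to them. HOTTIP, HOXC-AS2 and HOXC13-AS had no count in U87 OE either, so there the test could show nothing for them. The share of all genes called in either direction was 56.9% between the lines, 15.7% in siMEOX2 and 26.2% in U87 OE. HOXB-AS1, which overlaps exons of HOXB2 and HOXB3 on the other strand and was named after its value was seen, was lower, as HOXB2 was (log2 fold change -5.59, SE 0.66, adjusted p = 9.91e-05 by edgeR). None was called in SNB19 siMEOX2, and 1, HAGLR in the HOXD cluster, was lower in U87 OE (-0.58, SE 0.16, adjusted p = 0.0254 by edgeR). Because strand was not known to be kept, counts of an antisense RNA and its partner cannot be separated where they overlap. Of 8 tested genes that flank the clusters, none was called in siMEOX2, while SKAP2 beside HOXA (0.80, SE 0.15) and CALCOCO1 beside HOXC (1.06, SE 0.29) were higher and MTX2 beside HOXD (-0.73, SE 0.19) lower in U87 OE.

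Of the 7 HOX cofactor genes tested, 2 were lower and none higher in siMEOX2, 1 was lower and none higher in U87 OE, and 2 were higher and 2 lower in SNB19 NC against U87 EV, beside 15.7%, 26.2% and 56.9% of all genes called in either direction. MEIS3 was lower in both perturbations (-1.08, SE 0.16, adjusted p = 3.19e-03 in SNB19 siMEOX2 and -0.99, SE 0.20, adjusted p = 7.29e-03 in U87 OE, by edgeR). Its mean level was 5.68 FPKM in SNB19 NC and 2.85 in siMEOX2, and 14.7 in U87 EV and 8.93 in U87 OE. PBX3 was lower in siMEOX2 (-0.54, SE 0.13, adjusted p = 0.0219 by edgeR) and was at 0.13 (SE 0.15) in U87 OE.

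Of 32 Polycomb and Trithorax regulators, 4 were higher and 2 lower in SNB19 siMEOX2, 4 higher and 7 lower in U87 OE, and 9 higher and 7 lower in SNB19 NC against U87 EV. In these comparisons 15.7%, 26.2% and 56.9% of all genes were called in either direction. PHF19, an accessory protein of Polycomb repressive complex 2, fell in both perturbations (log2 fold change -0.69, SE 0.12, in siMEOX2 and -1.08, SE 0.15, in U87 OE). JARID2, another accessory protein, rose in U87 OE (3.03, SE 0.38) and was at 0.32 (SE 0.29) in siMEOX2. KDM6B, which removes the mark that Polycomb leaves, rose in U87 OE (1.79, SE 0.37), and CBX2, which reads that mark, fell there (-1.54, SE 0.31).

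Of 11 tested retinoic acid and CDX genes, 2 were higher and 2 lower in siMEOX2, 1 higher and 3 lower in U87 OE, and 4 higher and 5 lower in SNB19 NC against U87 EV. The shares of all genes called were again 15.7%, 26.2% and 56.9%. DHRS3, which reduces retinaldehyde, rose in siMEOX2 (2.41, SE 0.41, adjusted p = 4.91e-03 by edgeR). CRABP2, a carrier of retinoic acid, fell in both perturbations (-0.95, SE 0.27, and -1.99, SE 0.36). ALDH1A3, which makes retinoic acid, had 10.1 FPKM in U87 EV and 61.5 in U87 OE (log2 fold change 2.41, SE 0.29, adjusted p = 6.84e-04 by edgeR), and CYP26B1, which breaks it down, was lower in U87 OE (-1.74, SE 0.41). The CDX genes were at or near 0 in every group. The changes of these lists were not tested against those of the HOX members.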

How the data were processed

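RNA-seq of 10 libraries in 4 groups was analysed. The authors deposited 1 table with raw counts per gene and FPKM for each library. The submitters' processing notes name HISAT2, HTSeq 0.11.2, DESeq2 1.26.0 and GRCh38, without saying what each did. In the deposited FPKM, the gene length equalled the exon length of GENCODE v29 for 99.7% of genes. Counts of 17312 genes that passed filterByExpr were fitted in edgeR 4.0.16 (R 4.3.3) with TMM scaling, 1 term per group, 6 residual degrees of freedom and quasi-likelihood tests. Adjusted p-values are Benjamini-Hochberg over these genes, and 0.05 was the threshold. The SE of a log2 fold change was worked back from the test, as its absolute size divided by the square root of the F statistic. FPKM served for levels only, with no pseudocount. The fit was also run on simulated data with the same dispersion for every gene and changes in well-counted genes only. That run did not cover members at few counts or a library that stands apart. Bounds use 3 counts over a group at 0, and intervals and bounds cover counting error only.

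Members and gene lists were chosen with earlier results of these data known. Values in every library are given for the 2 leading members of each cluster in each control group, each member called in a perturbation, the 10 called members with the largest difference between lines, and MEOX2. One member enters the counts, sums and medians but is not reported here by itself. Other lists are given by counts with up to 4 named genes, those called in a perturbation with the largest changes, and genes outside these rules are marked in the text as chosen after their values were seen. Alternatives were DESeq2 1.42.0, other scalings, no filter, only the groups compared, a replicate block, the call rule of the study's methods and leaving out each library. Promoters came from RefSeq and coordinates from GENCODE v29. Figures were drawn with matplotlib 3.10.9.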

Additional observations from a re-analysis of the deposited data

How the results depend on the processing

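In SNB19 siMEOX2 against NC 4 HOX members and 2725 genes were called. The number of members called was 1 without the low-count filter (2649 genes) and 1 with upper quartile scaling (2746 genes). It was 2 (1842 genes) under the call rule of the study's methods (unadjusted p under 0.05 and a log2 fold change over 1 in size). With the SNB19 libraries alone it was 9 (8683 genes), and 1 to 3 when 1 library was left out (1148 to 1507 genes). In U87 OE against EV, where 3 members and 4538 genes were called, it was 0 with the U87 libraries alone (0 genes), 5 under the study's rule and 2 to 7 when 1 library was left out (1553 to 10929 genes). Between the lines, where 21 members and 9843 genes were called, 20 to 24 members were called under every alternative. At 10 FPKM in place of 1, 1 member was expressed in SNB19 NC and 1 in U87 EV. No called log2 fold change of a named member turned its sign under the alternatives run. Of the alternative values of named members, 27 in SNB19 siMEOX2 and 4 in U87 OE lost their call, and 33, 51 and, between the lines, 110 stayed on their side of the threshold. The cause of these changes was not tested.

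The replicate block gave 1 member and 972 genes in SNB19 siMEOX2 and 3 members and 2126 genes in U87 OE. Whether same-numbered libraries share more than a number is not known. Their deviations correlated at 0.0435, 0.00256 and 0.0588 across genes in SNB19, which cannot exclude a shared culture or batch. In U87 the correlation was -0.162, and with 2 libraries a group the crossed numbers must give the same size with the other sign. A block on crossed numbers, added after seeing the data, gave 3 members and 3710 genes. With 2 or 3 libraries a group and members at few counts in U87, small differences could not be detected there.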

Other observations

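Among the 8 members that the low-count filter left out, chosen after their values were seen, HOXA4 had 9, 10 and 8 counts in SNB19 NC and 5, 2 and 0 in SNB19 siMEOX2, and HOXD12 had 0 and 2 counts in U87 EV and 2 and 7 in U87 OE. Neither was called when the filter was dropped. HOXA4 shares 47.3% of its exonic bases with other annotated genes and HOXD12 none.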
